A study of Mus musculus with 10 samples.

Results

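The regions described here are 3395 stretches of mouse liver DNA at the ends of genes in which an antibody to Xbp-1s, the active form of XBP-1, gave a peak in 6 of 8 immunoprecipitated libraries and in neither of the other 2. Peaks of the 8 libraries were joined wherever they overlapped by at least 1 bp, which gave 121319 regions. A region is a member when both Fed, both Fasted, WT replicate 2 and Ern1-LKO replicate 2 have a peak in it, when WT replicate 1 and Ern1-LKO replicate 1 have none, and when its midpoint is at most 1 kb from an end of a protein-coding gene. Of the 121319 regions 19980 lie at a gene end, so the members make up 3395 of 19980 gene-end regions. Members lie at the ends of 3672 of 21887 protein-coding genes. The share of all genes with a member is therefore 16.8%, and the counts for gene lists below are read against that value. It rests on Fasted replicate 2, the shortest of the 6 lists: without that library in the rule there were 6785 members at 33.0% of genes, and the lists are recounted on that basis after their own counts. The members were thus chosen by the presence and absence of called peaks, so these counts describe them and test nothing.

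All mice were of the strain C57BL/6J and all DNA came from liver. Fed mice and Fasted mice were wild type, WT mice were the wild-type controls of a knockout experiment, and Ern1-LKO mice lacked Ern1 in the liver only. Each group had 2 libraries, and 2 libraries of liver DNA without antibody served as input. The length of the fast, the ages, the Cre driver and the feeding state of the WT and Ern1-LKO mice are not given in the sources used here. Nothing in the labels ties the libraries to separate animals, so a p-value measures the spread between these samples only, which may be technical. Fed and Fasted peaks were called against one input and WT and Ern1-LKO peaks against the other, so groups were compared within each of these batches.

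XBP-1 is a bZIP transcription factor that acts when the load on the endoplasmic reticulum grows. When unfolded protein builds up in the endoplasmic reticulum (ER), the unfolded protein response starts: the ER kinase and nuclease encoded by Ern1 splices Xbp1 mRNA, and the spliced form is translated into the active factor. XBP-1 is known for switching on genes of ER protein folding, degradation and secretion, often through ACGT-centred sites, among them the ER stress response element (ERSE), and in liver it is also tied to lipid synthesis. A ChIP-seq peak is a place where DNA fragments recovered with the antibody pile up above the local background. The fold enrichment of a peak, the ratio of that pileup to the local background, is the authors' own value here.

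The 2 libraries without a peak in these regions had the shortest lists but not the fewest tags. WT replicate 1 gave 6258 peaks from 14.1M kept tags (M, 1e6), and Ern1-LKO replicate 1 gave 698 peaks from 12M. Their partners gave 30327 peaks from 9.18M tags (WT replicate 2) and 30796 peaks from 4.34M tags (Ern1-LKO replicate 2). The Fed and Fasted libraries gave 19237 to 82975 peaks from 7.77 to 17.4M tags. The lists that lack the members are thus short at a greater number of tags than those of their replicates, and the part that tag number, enrichment or genotype plays in these absences was not tested.

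Most members sit on GC-rich promoters, and the sequences below show what such promoters hold. Promoter windows of 300 bases, 250 before to 50 after an annotated start, came from RefSeq (build GRCm38.p6, the same assembly as mm10). For each of 5 motifs the promoter shown is the one of highest rank among members whose median summit falls inside the window, passing over promoters already shown for another motif, with a second for the GC box and for the XBP-1 core. All are printed 5′ to 3′ along the gene's strand. The first pair carries the GC box GGGCGG, the site of SP and KLF factors, in capitals on either strand. Agap3 (an Arf GTPase-activating protein) is at chr5:24451927-24452226, plus strand, and Qk (the RNA-binding protein Quaking) at chr17:10319312-10319611, minus strand.
Agap3: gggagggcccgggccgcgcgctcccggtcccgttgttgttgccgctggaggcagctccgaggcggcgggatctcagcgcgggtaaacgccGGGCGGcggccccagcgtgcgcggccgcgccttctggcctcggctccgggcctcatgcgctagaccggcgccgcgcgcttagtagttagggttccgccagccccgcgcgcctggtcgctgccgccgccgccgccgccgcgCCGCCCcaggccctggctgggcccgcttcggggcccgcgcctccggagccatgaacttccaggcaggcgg
Qk: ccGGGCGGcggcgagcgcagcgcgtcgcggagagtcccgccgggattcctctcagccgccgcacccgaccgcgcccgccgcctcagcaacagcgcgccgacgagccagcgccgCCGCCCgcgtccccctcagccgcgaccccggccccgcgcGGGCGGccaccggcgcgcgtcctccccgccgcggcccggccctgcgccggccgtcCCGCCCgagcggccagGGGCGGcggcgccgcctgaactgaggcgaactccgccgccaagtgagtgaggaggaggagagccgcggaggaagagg

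The next 3 promoters carry, in capitals, the ETS site CCGGAAG in Zfp512b (a zinc-finger protein, chr2:181592412-181592711, minus strand), CCAAT, the box bound by NF-Y, in Igf2bp3 (an RNA-binding protein, chr6:49214905-49215204, minus strand), and GCGCATGC, the site of NRF1, in Zbtb41 (a zinc-finger protein, chr1:139422133-139422432, plus strand).
Zfp512b: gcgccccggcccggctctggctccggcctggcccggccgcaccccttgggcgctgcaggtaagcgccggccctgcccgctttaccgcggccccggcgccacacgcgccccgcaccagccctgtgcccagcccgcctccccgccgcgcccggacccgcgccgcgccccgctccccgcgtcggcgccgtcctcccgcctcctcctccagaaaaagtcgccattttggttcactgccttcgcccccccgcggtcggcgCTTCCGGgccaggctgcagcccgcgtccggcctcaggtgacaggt
Igf2bp3: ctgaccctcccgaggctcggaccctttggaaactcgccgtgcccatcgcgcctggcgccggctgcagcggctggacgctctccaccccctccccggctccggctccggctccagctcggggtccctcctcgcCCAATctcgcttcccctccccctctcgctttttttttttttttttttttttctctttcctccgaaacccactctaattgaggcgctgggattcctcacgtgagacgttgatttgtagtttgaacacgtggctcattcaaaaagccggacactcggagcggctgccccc
Zbtb41: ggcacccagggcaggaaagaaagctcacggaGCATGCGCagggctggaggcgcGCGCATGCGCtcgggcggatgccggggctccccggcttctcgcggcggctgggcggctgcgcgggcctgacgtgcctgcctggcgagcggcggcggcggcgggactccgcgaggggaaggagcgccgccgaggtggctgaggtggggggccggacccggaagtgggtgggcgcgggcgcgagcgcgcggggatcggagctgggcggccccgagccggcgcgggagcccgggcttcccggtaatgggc

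The last pair of members carries CCACGT, the core of sites bound by XBP-1 and ATF6, in capitals. Crebrf (a regulator of CREB3) is at chr17:26715400-26715699, plus strand, and Hmgn2 (a nucleosome-binding protein) at chr4:133967942-133968241, minus strand. The promoter of Pdia6, an ER protein disulfide isomerase with a peak in all 8 libraries, is printed last for comparison (chr12:17266339-17266638, plus strand), with its ERSE, which is CCAAT, 9 bases of any kind and CCACG, in capitals.
Crebrf: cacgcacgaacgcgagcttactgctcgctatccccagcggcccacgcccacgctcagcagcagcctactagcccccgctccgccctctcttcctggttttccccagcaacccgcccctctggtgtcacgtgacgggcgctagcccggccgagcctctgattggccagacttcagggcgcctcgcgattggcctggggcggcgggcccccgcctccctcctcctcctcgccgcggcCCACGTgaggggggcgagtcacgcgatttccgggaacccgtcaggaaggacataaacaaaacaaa
Hmgn2: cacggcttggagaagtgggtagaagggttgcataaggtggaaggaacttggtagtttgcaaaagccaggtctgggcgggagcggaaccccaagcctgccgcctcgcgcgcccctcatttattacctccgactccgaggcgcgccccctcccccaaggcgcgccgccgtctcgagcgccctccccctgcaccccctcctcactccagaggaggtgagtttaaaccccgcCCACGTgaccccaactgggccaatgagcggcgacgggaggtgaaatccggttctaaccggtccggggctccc
Pdia6: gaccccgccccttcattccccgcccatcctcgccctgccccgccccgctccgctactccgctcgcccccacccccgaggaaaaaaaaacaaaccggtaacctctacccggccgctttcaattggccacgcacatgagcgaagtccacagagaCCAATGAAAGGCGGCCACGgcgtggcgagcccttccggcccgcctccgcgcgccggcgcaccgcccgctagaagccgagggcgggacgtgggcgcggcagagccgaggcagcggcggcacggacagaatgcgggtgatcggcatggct

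The authors' folds at 3 of these promoters are given as examples. At Agap3 they were 7.56 and 15.4 (Fed), 24.1 and 8.76 (Fasted), 11.9 (WT replicate 2) and 17.8 (Ern1-LKO replicate 2). At Crebrf they were 8.05, 12.7, 13.5, 7.22, 12.5 and 18.7 in the same order. At Pdia6 they were 47.6, 71.2, 72.7, 29.4, 76.5 and 74.7. Pdia6 was higher than both members in every one of the 6 libraries, but it is not typical of its set. The 327 gene-end regions with a peak in all 8 libraries had median folds of 9.77, 13.4, 19.2, 9.83, 20.2 and 20.9 in the same order. Agap3 was above those medians in Fed replicate 2 and Fasted replicate 1.

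Members were mostly single promoters. In 2705 regions the gene end could be told from the strand of a RefSeq promoter. Of these, 2615 (96.7%) had the midpoint within 1 kb of a 5′ end and 90 within 1 kb of a 3′ end only. The end of the other 690 was not matched. The 90 regions at a 3′ end only had a median rank of 32.9, against 47.2 for the regions at a 5′ end, where the rank of a region is the mean over the 6 libraries of its percentile by fold. Shared promoters were the minority: 182 regions (6.73% of those with a known end) lay at the 5′ ends of at least 2 genes, such as the region shared by Eif5b and Txndc9, and 345 of the 3395 (10.2%) had at least 2 genes of any orientation within 1 kb. Members were 282 to 3854 bp wide, with a median of 1011 bp.

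Summits lay just inside the genes. The median summit of the 6 libraries fell within 250 bp of the nearest listed start in 1602 of 2705 members (59.2%), and its median distance from that start was 212 bp in either direction. In all, 516 members (19.1%) had the summit upstream of the start, and the median position was 177 bp downstream. In the 327 gene-end regions with a peak in all 8 libraries, 34.2% had the summit upstream and the median position was 95.5 bp downstream. The 6 libraries placed the summit of a member 272 bp apart at the median. The closest were Det1 (a subunit of a ubiquitin ligase), whose 6 summits spanned 14 bp, Gpsm2 (a spindle orientation protein) and Uba3 (the activating enzyme of NEDD8), both 15 bp, Trim26 (17 bp) and Rufy1 (20 bp).

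**Figure D1:**
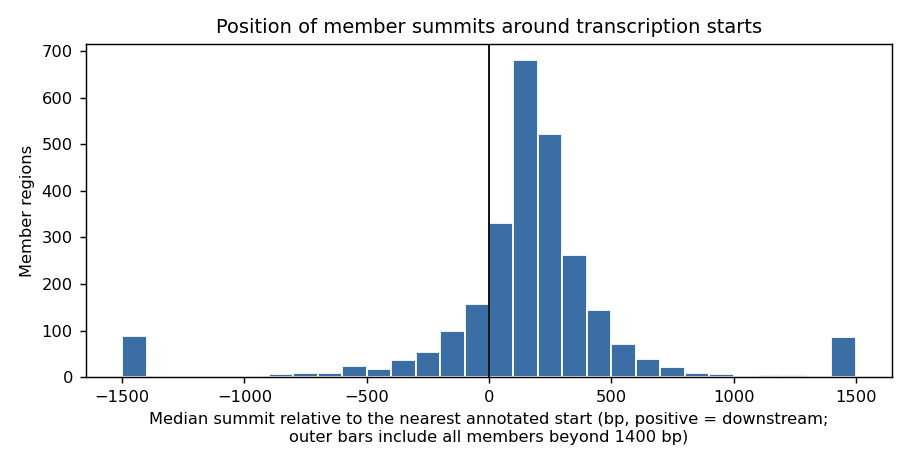
Number of member regions (y axis) by the position of the median summit relative to the nearest listed start (x axis, bp, bars of 100 bp, positive values downstream), for the 2705 members whose gene strand is known. The tallest bar, 681 members, is 100 to 200 bp downstream of the start, and the outer bars collect all members farther than 1400 bp away.

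In height the members were the middle of what the 6 libraries shared. To compare libraries whose folds differ in scale, the 7695 regions with a peak in all 6 were ranked in each by the highest fold in the region, and a percentile is a place in that ranking. The median fold of members was 6.36 (range 2.68 to 19.5) in Fed replicate 1 and 9.36 (3.70 to 21.3) in Fed replicate 2. It was 13.3 (4.32 to 32.4) in Fasted replicate 1 and 6.39 (2.55 to 18.6) in Fasted replicate 2. In WT replicate 2 it was 9.0 (2.95 to 32.3), and in Ern1-LKO replicate 2 it was 11.6 (3.34 to 28.0). The median percentiles were 48.1, 46.3, 49.3, 41.7, 45.9 and 49.9 in the same order, so that no library placed the members' middle above the middle of the ranking.

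The tallest regions were rare among members. Between 1.56% (WT replicate 2) and 6.04% (Fasted replicate 1) of members stood in the top 10% of a library's ranking. Of the 327 gene-end regions with a peak in all 8 libraries 34.9% to 69.1% stood there, and of the 991 with a peak also in WT replicate 1 but not in Ern1-LKO replicate 1 6.86% to 28.3%. Median percentiles were 80.2 to 95.2 in the former and 50.1 to 81.0 in the latter. The order of the 3 sets was the same in all 6 libraries, which is a description, since a call in a further library bears on height.

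**Figure D2:**
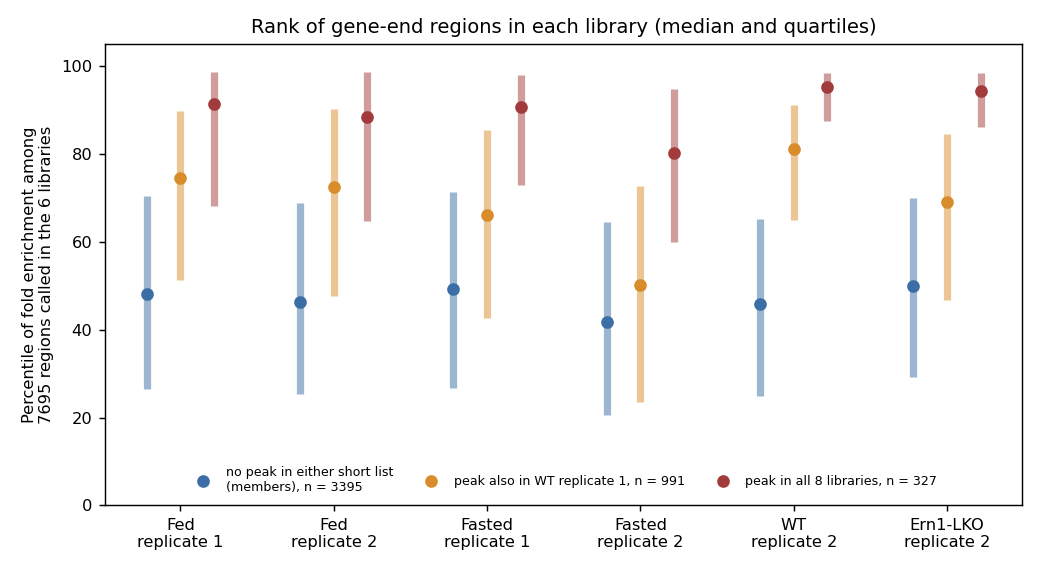
Percentile by fold enrichment in each of the 6 libraries (y axis, higher is taller; x axis, libraries) for members, for gene-end regions also called in WT replicate 1 and for those called in all 8 libraries. Points are medians and bars run from the first to the third quartile, and in each library the members' median, 41.7 to 49.9, is below those of both other sets.

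Which members were tall varied from library to library. Across the 3395 members, Spearman's correlation of folds was 0.52 between WT replicate 2 and Ern1-LKO replicate 2, 0.41 between the Fed libraries and 0.43 between the Fasted libraries. Each Fed library correlated with Fasted replicate 1 as closely, at 0.44, and with Fasted replicate 2 at 0.22 and 0.25. Across the batches the values were 0.17 to 0.27. Over all 7695 regions with a peak in the 6 libraries, of which the members are a selection, they were 0.15 to 0.44 across the batches, 0.64 between WT replicate 2 and Ern1-LKO replicate 2, 0.53 between the Fed and 0.40 between the Fasted libraries. Fed replicate 1 with WT replicate 2, for example, stood at 0.18 over the members and 0.43 over all of these regions. Libraries of 1 batch share an input library and each point is 1 region in both, so these values are descriptions. Over the members the correlation within Fed and within Fasted was no higher than that of either Fed library with Fasted replicate 1.

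Depdc7, which encodes a DEP-domain protein, had the highest mean percentile over the 6 libraries, 91.2. At its 5′ end, chr2:104742419-104742988, its folds were 12.3 and 16.2 in the Fed libraries, 22.2 and 12.1 in the Fasted ones, then 14.0 (WT replicate 2) and 16.7 (Ern1-LKO replicate 2). It was among the top 20% of the ranking in every library. After it came Dcbld1, Ahcyl2, Ube2q2 (a ubiquitin-conjugating enzyme), Washc1 (of the endosomal WASH complex), Msl2 (of a histone acetyltransferase complex), Mast2 (a kinase), Ptms (parathymosin), Sel1l3 and Rictor, the defining subunit of the kinase complex mTORC2, with mean percentiles of 87.7 to 90.1. Rictor had folds of 7.32, 15.9, 21.9, 12.2, 14.4 and 18.5 in the same order, the lowest of them in Fed replicate 1.

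The lowest members were 5 genes of varied function. Lce1m, of the skin's cornified envelope, had folds of 4.49, 5.81, 8.94, 3.93, 4.12 and 3.93 and a mean percentile of 4.92, the lowest. Tmem200c, Spock1 (a matrix proteoglycan), Olfm2 (an olfactomedin) and Tfap4 (a helix-loop-helix factor) followed, at 5.24 to 7.52. The middle 50% of members had mean percentiles between 35.0 and 59.0, with a median of 46.7.

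The limit of 1 kb gives these neighbours on either side. Just inside it were the regions of C1qtnf5, with its midpoint 1000 bp from the gene end, and of Jun (a subunit of AP-1), at 999 bp. Just outside were those of Gpr176 (1001 bp) and Iqcg (1004 bp). The folds of Jun were 7.20, 8.26, 12.1, 4.78, 7.84 and 11.6 and those of Gpr176 were 7.22, 7.15, 14.1, 6.39, 7.61 and 8.92.

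WT replicate 1 and Ern1-LKO replicate 1 seldom had a peak even close to a member. In WT replicate 1 the nearest peak lay within 5 kb of 173 members (5.10%) and at a median gap of 97.9 kb. In Ern1-LKO replicate 1 it lay within 5 kb of 19 members (0.56%) and at a median gap of 759 kb. The larger gap is that of the shorter list, and a member is missing there as a called peak, since tag counts below the caller's cutoff were not analysed here.

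When the authors pooled the libraries of a group before calling, most members were called in all 4 groups. The pooled Fed and the pooled Fasted list each had a peak in 3395 of 3395 members (at least 99.9%, lower Wilson 95% bound). The pooled WT list had one in 3020 (89.0%, Wilson 95% interval 87.9 to 89.97%) and the pooled Ern1-LKO list in 3144 (92.6%, 91.7 to 93.4%). The intervals cover counting error only, and the pooled lists contain the tags of the libraries that chose the members. The 375 members absent from the pooled WT list were mostly low: with the members cut into 4 equal groups by mean percentile, 68.9% of the lowest group were in it and 99.3% of the highest. For the pooled Ern1-LKO list these shares were 78.4% and 99.9%.

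Promoters of members were rich in GC and in CpG. Windows were matched to 2906 of the 3672 genes (79.1%), and 2778 of them had the member at their 5′ end. Since under 80% of the genes have a window, the values that follow describe the matched promoters and are void as a check of all members. Their median GC content was 66.7%, against 56.3% over all 17492 promoters. The ratio of observed to expected CpG was 0.83 at the median, against 0.58. Promoters above 50% GC and above a ratio of 0.6, a usual mark of CpG islands, made up 82.8% of the members', 89.0% of those with a peak in all 8 libraries and 45.5% of all promoters.

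The commonest match was the GC box, and the shares of XBP-1 cores were near those of all promoters. Motifs were searched by exact letters on both strands, and a match is no evidence of binding. The windows end 50 bases after the start. The median summit position was 177 bp downstream in members and 95.5 bp in the regions with a peak in all 8 libraries. Sequence at many summits was therefore not searched, and how far this affects the shares was not tested. GGGCGG was found in 2125 of 2778 members' promoters (76.5%) and in 46.3% of all promoters. It is not particular to the members: 79.3% of the promoters also called in WT replicate 1 and 77.7% of those with a peak in all 8 libraries had it. CCACGT was found in 281 (10.1%, Wilson 95% interval 9.05 to 11.3%), against 9.07% of all promoters, 18.3% of those also called in WT replicate 1 and 24.6% of those with a peak in all 8 libraries. ACGTCA, the core shared by ATF and XBP-1 sites, was found in 8.24%, against 8.71%, 19.4% and 18.3%. The full cAMP response element TGACGTCA, which contains ACGTCA on both strands, was in 2.38% of members' promoters and 2.33% of all.

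The full ERSE was rare everywhere. It was in 1 of 2778 members' promoters and in 28 of all 17492 promoters. It was in 0 of 892 also called in WT replicate 1 and in 9 of 301 with a peak in all 8 libraries. Within 4 bands of GC content (below 55%, 55 to 65%, 65 to 75% and above 75%) CCACGT was in 7.99%, 11.8%, 10.2% and 7.97% of members' promoters. Over all promoters the shares were 5.24%, 11.6%, 13.6% and 11.1% in the same order, so the members' share was above that of all promoters in the lowest band, close to it in the second and below it in the upper ones. Promoters with a peak in all 8 libraries had 17.6%, 29.9%, 27.9% and 14.8%, above the members in every band. Shares of members differed little by height. From the lowest to the highest of the 4 groups by mean percentile CCACGT was in 10.04%, 9.45%, 10.2% and 10.5% of promoters. Both splits were chosen after the shares had been seen.

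Of the other promoter elements some were more frequent than in all promoters and some less. CCGGAAG (ETS) was in 13.2% of members' promoters and 11.9% of all, and CACGTG (the E-box, which shares its central bases with CCACGT) in 10.1% and 7.91%. GCGCATGC (NRF1) was in 5.11% and 3.61%, AAGATGGC (YY1) in 3.96% and 3.21%, and TTTCCCGC (E2F) in 2.38% and 1.46%. All of these but E2F were more frequent still in promoters also called in WT replicate 1 and in those called in all 8 libraries. There ETS was in 21.4% and 17.3%, the E-box in 15.9% and 13.0%, NRF1 in 6.84% and 8.31%, and YY1 in 5.38% and 4.98%. E2F was in 1.91% and 0.997%. CCAAT was less frequent in members' promoters than in all, at 32.4% and 39.2%, and so was TATAAA (the TATA box), at 5.22% and 13.3%. These lower shares were not particular to the members. In promoters also called in WT replicate 1 CCAAT was in 31.5% and TATAAA in 4.48%, and in those called in all 8 libraries in 35.9% and 5.98%. ACTACAATT (ZNF143) was in 0.58% of members' promoters and 0.54% of all. Sites of the liver factors HNF4A (CAAAGTCCA) and C/EBP (TTGCGCAA) were in 4 and 5 of the 2778 promoters, or 0.14% and 0.18%, against 0.42% and 0.22% of all.

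**Figure D3:**
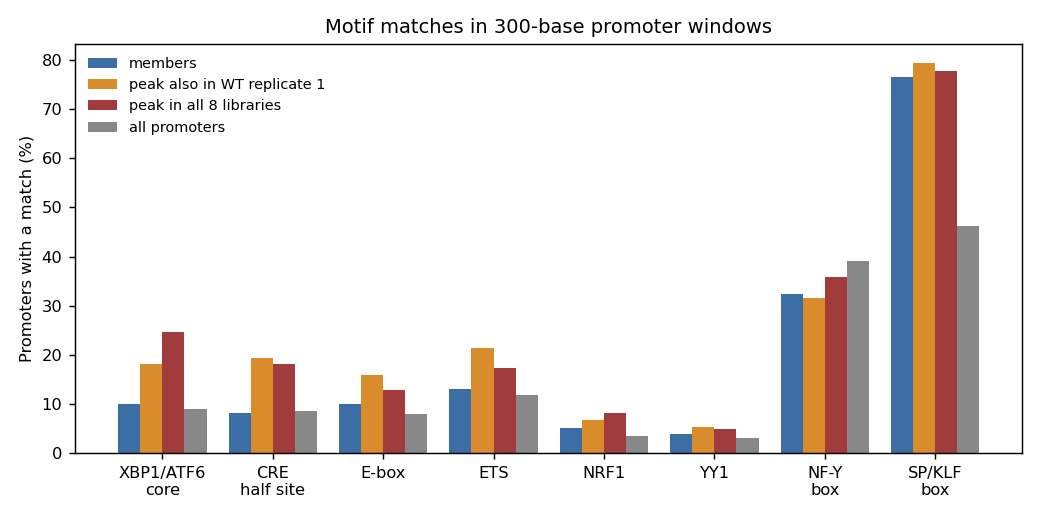
Share of 300-base promoter windows with at least 1 match on either strand (y axis, percent) for 8 motifs (x axis, by name), in 2778 promoters of members, 892 also called in WT replicate 1, 301 called in all 8 libraries and all 17492 promoters. The SP/KLF box is in 76.5%, 79.3%, 77.7% and 46.3% of these sets in that order, and the XBP1/ATF6 core in 10.1%, 18.3%, 24.6% and 9.07%.

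Genes of ER protein folding, the best-known XBP-1 targets, were absent from the members. Of 30 such genes 0 had a member, whereas 20 had a region with a peak in all 8 libraries and 4 one called in every library but Ern1-LKO replicate 1. These are all of the 24 listed genes with a gene-end region called in the 6 libraries. The rule bars a region called in WT replicate 1 or Ern1-LKO replicate 1. The 0 thus largely follows from those calls and is no separate result. Over all 21887 genes 1.75% had a region called in all 8 libraries and 5.14% one called also in WT replicate 1. Of 30 genes of the translocon and ER targeting 1 had a member, Sec61a2, a second form of the channel's main subunit. Its folds were 8.18, 8.48, 12, 4.10, 12.1 and 10.6, and the main form, Sec61a1, had a region in all 8 libraries. Of 30 genes of ER-associated degradation 2 had a member (6.67%), Erlin2 (of an ER membrane complex) and Aup1 (which brings a ubiquitin-conjugating enzyme to the ER), whereas 12 (40%) had a region called also in WT replicate 1 and 4 (13.3%) one in all 8 libraries, to be read against the 5.14% and 1.75%.

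The later steps of the secretory pathway were closer to the 16.8% of all genes. N-glycosylation had 5 members among 30 genes (16.7%): Alg9, a mannosyltransferase, with folds of 10.3, 18.2, 17.8, 14.3, 10.4 and 14.2 and a mean percentile of 83.4, and, among the others, Dolk (dolichol kinase), Alg5 and Tusc3. ER-Golgi transport had 4 of 30 (13.3%), namely Sec24c of the COPII coat, Sec16a of ER exit sites, and Copg1 and Copg2 of the COPI coat. Each of these 4 regions had a second gene within 1 kb, namely Fut11, Inpp5e, Hmces and Tsga13 in that order. Each lay near both a 5′ end and a 3′ end, so it may belong to the neighbour's promoter. The region of Sec24c and Fut11 stood highest, at a mean percentile of 80.6. 2 of the 4 listed genes had a further region of another kind, Sec24c one with a peak in all 8 libraries and Sec16a one called also in WT replicate 1. Among all 3672 genes with a member, 5 also had a region called in all 8 libraries and 18 one called also in WT replicate 1.

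The regulators of the unfolded protein response were split. Of 25 genes of its other arms 4 had a member (16.0%): Ern1 itself, Cebpg and Atf5 (bZIP factors of the stress response) and Mbtps1, the protease that cleaves ATF6. Xbp1, Ddit3 and Eif2ak3, 3 of the 25, had regions in all 8 libraries, against 1.75% of all genes. Atf4, Atf6b and Cebpb, also 3 of the 25, had regions called also in WT replicate 1, against 5.14% of all genes. The region at the 5′ end of Ern1 (chr11:106487029-106488361) had folds of 7.65 and 11.6 in the Fed libraries, 13.8 and 9.70 in the Fasted ones, then 11.7 (WT replicate 2) and 11.3 (Ern1-LKO replicate 2). A peak at the 5′ end says nothing of a deletion elsewhere in the gene, so it is no check of the knockout.

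General cell functions supplied the lists with the most members. Mitochondrial import and dynamics had 11 of 30 genes (36.7%), among them Timm23, Tomm40, Tomm22 and Tomm70a of the import channels, the processing protease subunits Pmpcb and Pmpca, the protease Lonp1, and the outer membrane channels Vdac3 and Vdac1. Of these Timm23 stood highest, with folds of 9.90, 10.7, 16.7, 7.08, 8.59 and 10.7, in a promoter it shares with Parg. The median mean percentile of the 11 was 35.0, below the 46.7 of all members. No gene of this list had a region in all 8 libraries.

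Ubiquitin conjugation and cullins had 10 of 30 (33.3%), including Uba2 (the activating enzyme of SUMO), Uba3, Ube2h, Ube2l3, Cul2 and Cul5, and a further 8 genes, such as Cul1 and Cul3, had a region in all 8 libraries, against 1.75% of all genes. Chromatin remodelling had 9 of 30 (30.0%), among them Arid2 and Smarcc1 of SWI/SNF complexes, the deacetylases Hdac2 and Hdac3, and Suz12 and Ezh2 of Polycomb. Translation factors had 9 of 30, led by Eif5b (folds 6.11, 13.5, 19.1, 11.9, 10.1 and 18.3) and including Eef1a1 and Eif3f. Neighbours can share a member, as Eef1b2 of this list does with Ndufs1 of the respiratory chain and Nup188 of the nuclear pore with Dolk. Spliceosome, nuclear pore, vacuolar ATPase with lysosome, and autophagy each had 8 of 30 (26.7%). Some of these lists were frequent in the other called sets too. Autophagy had 9 and the nuclear pore 5 of 30 genes with a region called also in WT replicate 1, against 5.14% of all genes. Chromatin remodelling and translation factors had 4 of 30 each with a region in all 8 libraries, against 1.75%. Mitochondrial import had 1 of 30 in the former set and 0 in the latter. Tfeb, a master regulator of lysosomal genes, stood highest of the lysosomal list, with folds of 7.16, 10.1, 16.7, 11.2, 18 and 23.3, and Ambra1 of the autophagy list.

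Other general functions were at or below the 16.8%. Cytosolic ribosomal proteins had 5 of 30 (16.7%) and cytosolic chaperones 4 of 30, among them Hsp90aa1, Cct7 and Stip1. RNA polymerase II with its general factors, and ribosome processing, had 4 of 30 each (13.3%). Mitochondrial ribosomal proteins, the respiratory chain, the proteasome, tRNA synthetases, DNA replication and DNA repair each had 3 of 30 (10%).

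Metabolic genes were near the background too. Gluconeogenesis and glycolysis had 5 of 25 (20%): Creb1, Foxo1 and Ppargc1a, the regulators that turn on hepatic glucose output, and the enzymes Gpi1 and Eno1. Foxo1 had folds of 6.86 and 10.4 in the Fed libraries, 17.1 and 7.71 in the Fasted ones, then 32.3 (WT replicate 2) and 21.0 (Ern1-LKO replicate 2). Its WT replicate 2 value is the highest of all members in that library. Lipogenesis had 4 of 30 (13.3%), Acss2, Scap, Elovl5 and Fads1. A further 7 of the 30, among them the enzymes Acaca, Fasn and Dgat1, had regions called also in WT replicate 1, against 5.14% of all genes. Fatty acid oxidation had 4 of 25 (Acat1, Acaa1a, Acads and Acaa1b), cholesterol synthesis and uptake 3 of 25 (Srebf2 and Lrp1 among them) and the circadian clock 5 of 25, with Rora, Npas2 and Nr1d1.

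Lists of cell identity genes had members at or below the 16.8% of all genes, apart from the Hox genes. Of 30 genes for hepatocyte markers and plasma proteins 0 had a member and 0 had a region called in the 6 libraries, and of 30 cytochrome P450 genes 1 had a member, Cyp26a1, which degrades retinoic acid. The labelled tissue can therefore not be checked from members. Marker lists of other cell types gave 1 of 20 for Kupffer cells (5%, Spi1), 1 of 15 each for endothelium (Flt4) and stellate cells (Reln, both 6.67%), 2 of 12 for cholangiocytes (16.7%, Bicc1 and Sox9), 1 of 19 for lymphocytes (5.26%, Cd4), 2 of 20 for neurons (10%, Slc17a7 and Map2) and 0 of 20 for muscle. Hox genes, which pattern the embryo's axis, had 7 of 24 (29.2%), and Hoxd8, Hoxb9, Hoxa13, Hoxc8, Hoxd13, Hoxc13 and Hoxa5 were also the only Hox genes of the list with a gene-end region in the 6 libraries. Hoxd8 stood highest of them, with folds of 6.88, 12.1, 18, 10.8, 9.62 and 15.1. Autosomes had a member at 12.1% (chromosome 7) to 22.8% (chromosome 8) of their genes, the X chromosome at 48 of 966 genes (4.97%) and the Y chromosome at 0 of 256.

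The place of several lists against the background changed when Fasted replicate 2 was left out of the rule, a recount chosen after the data had been seen. Against the 33.0% of all genes, translation factors and the vacuolar ATPase with lysosome then had 19 of 30 each (63.3%) and mitochondrial import 18 of 30 (60%). Chromatin remodelling and the spliceosome had 16 of 30 each (53.3%) and the nuclear pore 15 of 30 (50%). Ubiquitin conjugation and autophagy had 11 of 30 each (36.7%), near the background. Of the lists at or below 16.8% above, mitochondrial ribosomal proteins had 16 of 30 (53.3%), cytosolic chaperones 15 of 30 (50%), and cytosolic ribosomal proteins and RNA polymerase II 14 of 30 each (46.7%). Fatty acid oxidation and cholesterol synthesis had 12 of 25 each (48%). Of the lists of the ER, ER folding and the translocon were again below it, with 2 of 30 each (6.67%). So were ER-associated degradation and ER-Golgi transport, with 4 of 30 each (13.3%). The other arms of the unfolded protein response had 13 of 25 (52%). Hepatocyte markers had 1 of 30. Leaving out WT replicate 1 instead, also chosen after the data had been seen, gave members at 21.8% of all genes. ER-associated degradation then had 14 of 30 (46.7%), the translocon and ER-Golgi transport 9 of 30 each (30%), and ER folding 4 of 30 (13.3%). The rise was not particular to ER lists. Autophagy had the highest share, 17 of 30 (56.7%), and the nuclear pore had 13 of 30 (43.3%). Cytosolic chaperones and lipogenesis had 11 of 30 each (36.7%), whereas mitochondrial ribosomal proteins stayed at 3 of 30 (10%). This recount lets in regions called also in WT replicate 1, so it is no separate result.

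**Figure D4:**
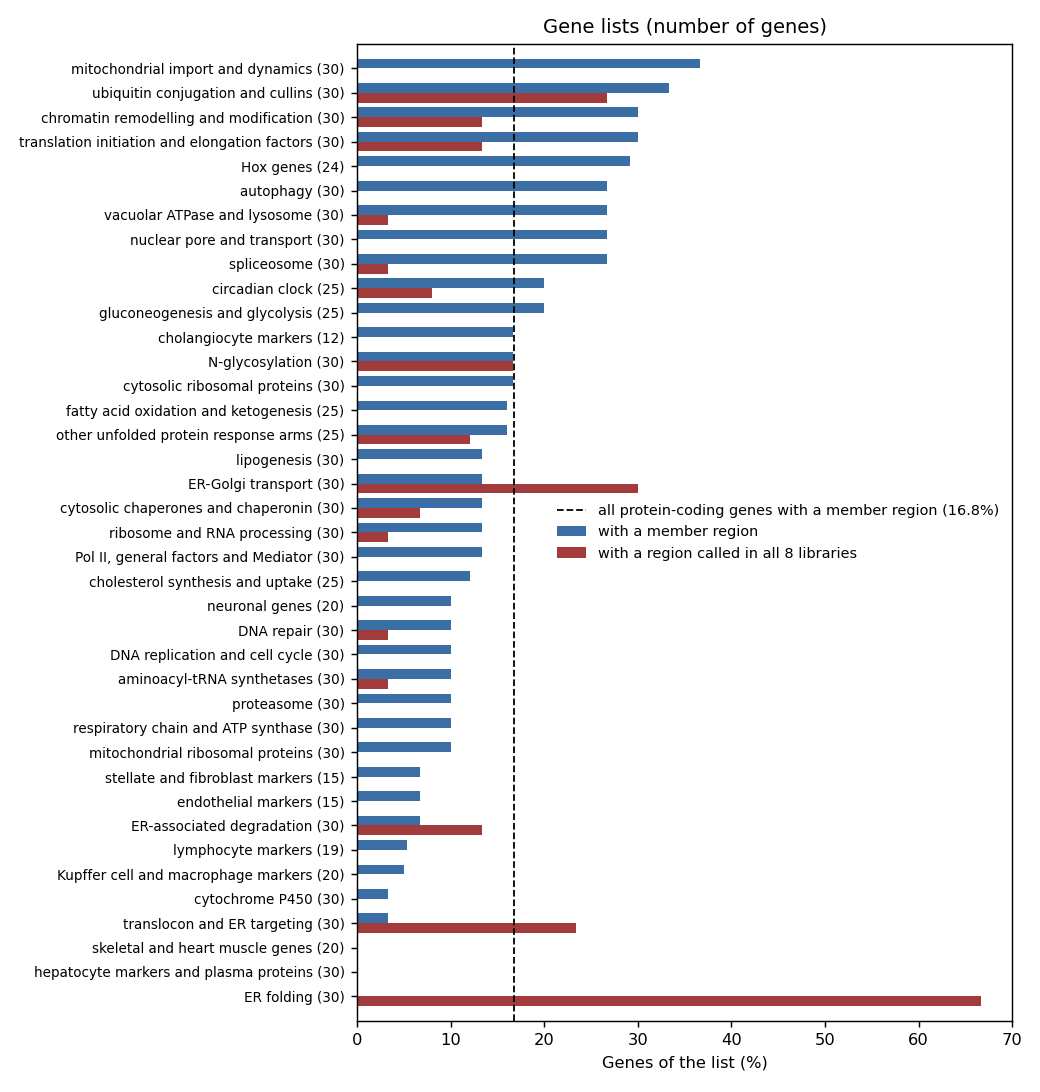
Share of the genes of each list (x axis, percent; y axis, lists with the number of genes) that have a member region or a region called in all 8 libraries, with the 16.8% of all protein-coding genes as a dashed line. Mitochondrial import leads the members with 36.7%, and ER folding has 0% in the members and the longest bar of the other set.

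No difference between Fed and Fasted was detectable for the members as a set. Their median percentile was 48.1 and 46.3 in the Fed libraries (47.2 ± 1.29, SD, n = 2) and 49.3 and 41.7 in the Fasted libraries (45.5 ± 5.37, SD, n = 2). The difference of 1.68 percentile points was within the spread between the Fasted replicates (exact two-sided permutation test over libraries, p = 1), and the smallest p that 2 against 2 allows is 0.33. Its direction turned, to -2.31, when members were ranked among gene-end regions only and, to -2.12, without Fasted replicate 2.

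Single members whose libraries did not overlap were about as common as among all ranked regions. Both Fed percentiles lay above both Fasted percentiles in 716 members (21.1%), against 20.1% of the 7695 ranked regions, which include the members. The reverse held for 591 members (17.4%), against 19.0%. In the 991 regions also called in WT replicate 1 the 2 shares were 36.9% and 11.6%, and in the 327 called in all 8 libraries 24.2% and 24.5%. The members' shares are near the background, so the genes named next are examples by size of gap and not a set shown to respond.

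The widest gap with Fed above Fasted was at Vps13b, which encodes a lipid transfer protein of the Golgi. Its percentiles were 84.9 and 89.6 in Fed, 12.2 and 5.09 in Fasted. Its folds were 8.68 and 13.6 in Fed, 9.36 and 4.10 in Fasted. The percentiles of Fed and Fasted did not overlap, whereas the folds did, since Fasted replicate 1 was above Fed replicate 1. Sh2d6, Laptm4b (a lysosomal membrane protein), Srd5a3, Trpm7 (a channel with a kinase domain), Gpsm2, Cct7, Gpr4 and Cxadr (the coxsackievirus and adenovirus receptor) were among those that followed, with gaps of 60.6 to 76.7 points between the means. Srd5a3, the polyprenol reductase that makes dolichol for N-glycosylation, had percentiles of 79.8 and 82.8 in Fed, 9.12 and 5.67 in Fasted.

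In the other direction Cic, which encodes the repressor Capicua, led. Its percentiles were 8.21 and 14.0 in Fed, 91.1 and 91.3 in Fasted, and its folds 4.31 and 7.15 in Fed, 19.4 and 12.2 in Fasted. Both Fasted values stood far above both Fed values. Gprin1, Tti2 (a partner of PI3K-related kinases), Ttbk1 (a tau kinase), Ctf1 (cardiotrophin 1), Rap1gds1, Acot12 (a liver acyl-CoA thioesterase), Gria4 (a glutamate receptor subunit), Spry1 (an inhibitor of receptor tyrosine kinase signalling) and Smap2 followed, with differences of Fed from Fasted means of -73.9 to -65.1 points. Acot12 had percentiles of 11.5 and 18.7 in Fed, 67.9 and 98.2 in Fasted.

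**Figure D5:**
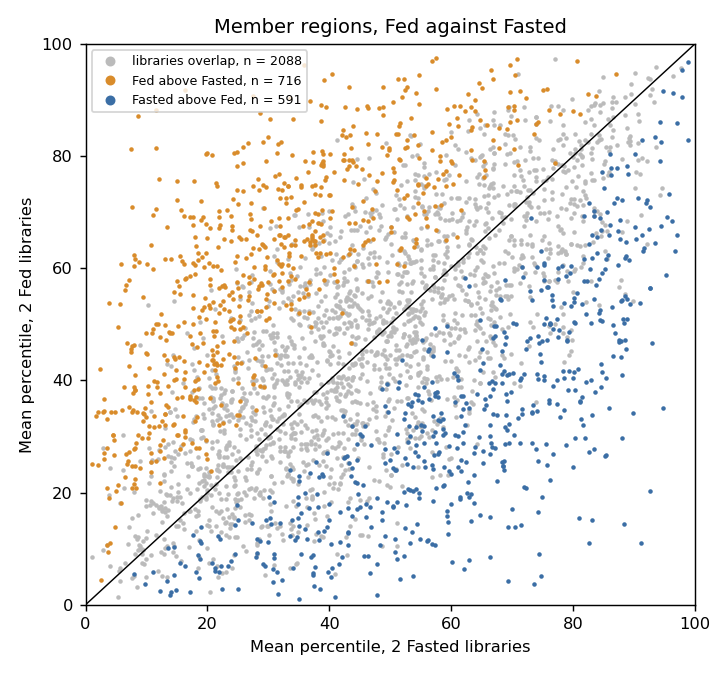
Mean percentile of each member over the 2 Fed libraries (y axis) and the 2 Fasted libraries (x axis), with the line of equality. Colours mark the 716 members whose Fed values both lie above the Fasted values, the 591 with the reverse and the rest, and the cloud lies on both sides of the line.

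WT and Ern1-LKO could be set side by side in 1 library each, since the rule excludes replicate 1 of both, so the following values have no replicate check and no test. The widest gaps with WT replicate 2 above Ern1-LKO replicate 2 were at the promoter shared by Eif1ad and Banf1 (percentiles 88.5 and 6.69), Plcg2, Hps3, Hoxa5 with Hoxa6, and Zc3hav1l. Those with Ern1-LKO replicate 2 above were at Ptpn9 (a tyrosine phosphatase, 6.96 and 93.1), Stox1, Heyl (a Notch target), Fam110b and Dlg5.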

How the data were processed

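XBP-1 ChIP-seq was deposited as 12 peak lists, of which 8 cover single libraries and 4 the pooled libraries of a group. The submitters' processing notes name Bowtie2 2.2.5 (with FastQC 0.11.3 and bcl2fastq), build mm10 and MACS2 2.2.1, whereas the file headers name MACS 2.1.1.20160309, with 1 tag kept per position and a q cutoff of 0.05. Kept tags per library, per the file headers, were 4.34M to 17.4M (M, 1e6). Each list gives, per the file headers, the pileup signal at the summit, the fold enrichment (a ratio to the local background) and −log10 p- and q-values as the authors computed them. They were used to describe, filter and rank regions within a list, since a fold also depends on tag number, input and library quality.

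Peaks were merged at 1 bp of overlap and set against 21887 protein-coding genes of GRCm38.p6, whose table gives no strand. Strand and starts came from RefSeq promoters matched by gene ID (17492 genes). The members, the 39 gene lists (1050 genes, with Trac unmatched) and the 15 motifs were chosen with earlier results of these data known. Genes named are the 10 highest and 5 lowest members by mean percentile, up to 4 per list at the head, up to 10 per direction of the Fed and Fasted contrast, up to 5 per direction between WT and Ern1-LKO replicate 2, those next to the 1 kb limit and up to 5 with the most genes or closest summits, with predicted genes passed over. Further list members are named from the lists after their values were seen. Fed and Fasted medians were compared by an exact permutation test over libraries (Python 3.11.15, numpy 2.4.6, pandas 2.3.3, scipy 1.17.1). Alternatives were other cutoffs, windows, overlaps and rankings, a block for the replicate number, and each library left out in turn. The rule was checked on simulated peak lists. No genome sequence was used here, so motifs were not searched at summits. Some genes that the rule names are not reported here.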

Additional observations from a re-analysis of the deposited data

How the results depend on the processing

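The number of members was 3395. Other cutoffs, windows and overlaps gave 2675 (500 bp) to 4327 (5 kb) members at 13.0% to 22.6% of genes, all within 1.5 times of it. Leaving out 1 library gave 3402 to 6785 members and 16.8% to 33.0% of genes, and the highest values, 6785 and 33.0%, were those without Fasted replicate 2, the shortest of the 6 lists, since 3388 more regions lack a peak only there and in the 2 excluded libraries. The GC box was in 79.9% of the promoters that a member overlaps, against 76.5%, and the other motif shares moved by less than their intervals. The share of members in the pooled WT and Ern1-LKO lists was the same at 50% overlap.

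The Fed minus Fasted difference of 1.68 became 3.01 ranked by pileup, 3.04 by −log10 q and -2.31 among gene-end regions only. Leaving out 1 library gave -2.12 (without Fasted replicate 2) to 5.47, each time with an exact permutation test that cannot go below 0.33. With the replicate block it was 1.68 (exact permutation test, p = 1, smallest possible 0.5). Same-numbered Fed and Fasted libraries deviated together at a correlation of 0.02 over the members and 0.09 over the 7695 ranked regions, so the numbers were not taken to pair the samples. The members rest on called peaks, and tags below the cutoff were not analysed here.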
